A study of Caenorhabditis elegans with 6 samples.

Results

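Of the 1642 genes that the deposited table of this Caenorhabditis elegans study lists under a bare sequence name (such as T12E12.3) with a value for 22G RNA reads, the 200 with the highest value are described here. The value is a normalized score of 22G RNA reads per gene that the authors took from another study, and it is given for 4133 genes of all kinds. It ran from 223 to 4100 among the 200 genes, with a median of 293. The score comes from other animals than the mRNA libraries below, so the choice of genes used no mRNA level. The label "uncharacterized" reflects the naming of the deposited table: 77 of the 200 now carry a gene-class symbol, given in parentheses below. By the Ensembl annotation of WBcel235, 195 were protein coding and 2 were pseudogenes, and 3 were not found in it.

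Messenger RNA of whole gravid adult hermaphrodites grown at 20 °C was read in 6 libraries, with 3 strains of 2 libraries. SIN is strain OD1175 and WT is strain OD1463. Worms of both strains had the csr-1 deletion tm892 on both chromosomes and were homozygous for transgenes. SIN is not written out in the labels; knowledge of the study gives a transgene whose CSR-1 cannot cut RNA (slicing-inactive) for SIN, and one with normal CSR-1 for WT. N2 is the standard laboratory strain and carried neither the deletion nor a transgene. The SIN and WT worms were homozygotes picked by movement among the progeny of balanced heterozygous mothers, so their mothers were not homozygous for the deletion. Each library pooled 100 worms, and the labels do not say whether replicates came from separate cultures; the p-values below therefore measure no more than the spread between libraries of a strain, which may be technical.

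22G RNAs are small antisense RNAs that RNA-dependent RNA polymerases make on mRNA templates in the worm germline. Argonaute proteins carry them back to matching transcripts. The Argonaute CSR-1 binds 22G RNAs against a large share of the genes expressed in the germline, and it can cut a paired transcript, whereas the WAGO Argonautes use other 22G RNAs to silence genes and transposons.

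The libraries held 39865531 and 34654600 counts for SIN, 42126710 and 33739391 for WT and 44962816 and 42435429 for N2. Levels below are counts scaled to library size (CPM) with TMM factors, and "rose" and "fell" stand for an adjusted p under 0.05 in edgeR's quasi-likelihood test over 15404 genes. The csr-1 transcript itself stood at 2910 and 3310 CPM in SIN, against 662 and 636 CPM in WT and 445 and 476 in N2; reads of the transgene and of the chromosomal sequence were not separated. Of the other genes listed for the csr-1 22G RNA pathway, the polymerase gene ego-1 rose 2.09-fold in SIN against WT (adjusted p = 0.000866). In the same comparison drh-3 (1.17-fold, adjusted p = 0.0946) and ekl-1 (adjusted p = 0.525) did not pass, and cde-1 was not matched by name. All 10 sperm markers listed were detected, and their summed level was 76.4 and 75.5 CPM in SIN, against 21.7 and 28.1 CPM in WT and 15.6 and 13.8 in N2. Of the 9 tested, spe-9, spe-15 and fer-1 rose in SIN against WT, and spe-15 alone had 56.7 and 48.0 CPM in SIN, 14.3 and 17.2 CPM in WT and 8.99 and 7.59 in N2. The 10 germline and oocyte markers summed to 10600 and 10100 CPM in SIN, 11300 and 10700 CPM in WT and 11000 and 9920 in N2. Within that sum the P granule helicase gene glh-1 rose 3.05-fold in SIN against WT (adjusted p = 0.00161), and the oocyte genes oma-1, oma-2 and puf-5 fell (adjusted p = 0.0414, 0.0428 and 0.0339). Muscle markers summed to 1810 and 2930 CPM in SIN, 2690 and 3110 CPM in WT and 1690 and 3630 in N2. Hypodermis markers summed to 1250 and 2360 CPM in SIN, 2400 and 3150 CPM in WT and 907 and 3140 in N2, so that for both tissues the library numbered 1 was the lower one in every strain. Intestine and neuron markers were detected in every strain. The 8 intestine markers summed to 39800 and 49000 CPM in SIN, 37300 and 35900 CPM in WT and 47400 and 40200 in N2. Of these only the esterase gene ges-1 passed in SIN against WT, with a 1.46-fold rise (adjusted p = 0.0334). Without passing, act-5 (0.412-fold) and ifb-2 (0.518-fold) were lower, and vit-2, vit-3, vit-5, vit-6 and elt-2 were higher. The 9 markers of embryos in utero summed to 14.7 and 13.7 CPM in SIN, 15.4 and 15.5 CPM in WT and 40.9 and 18.6 in N2. The part of these differences in the results below was not tested, and in whole worms fewer cells of a type and less RNA per cell cannot be told apart.

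The 200 genes took a larger share of the mRNA in SIN than in the other strains. Together they held 4.52% and 4.28% of all counts in the SIN libraries, against 2.91% and 2.87% in WT and 3.0% and 2.67% in N2. Both SIN libraries lay above all 4 others in this share. The median level of a member was 175 and 159 CPM in SIN, 118 and 116 CPM in WT and 110 and 103 in N2. No member was at 0 in any library, and 199 of the 200 had enough counts to be tested; ZK402.5, with 2 to 7 counts per library, was not.

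**Figure D1:**
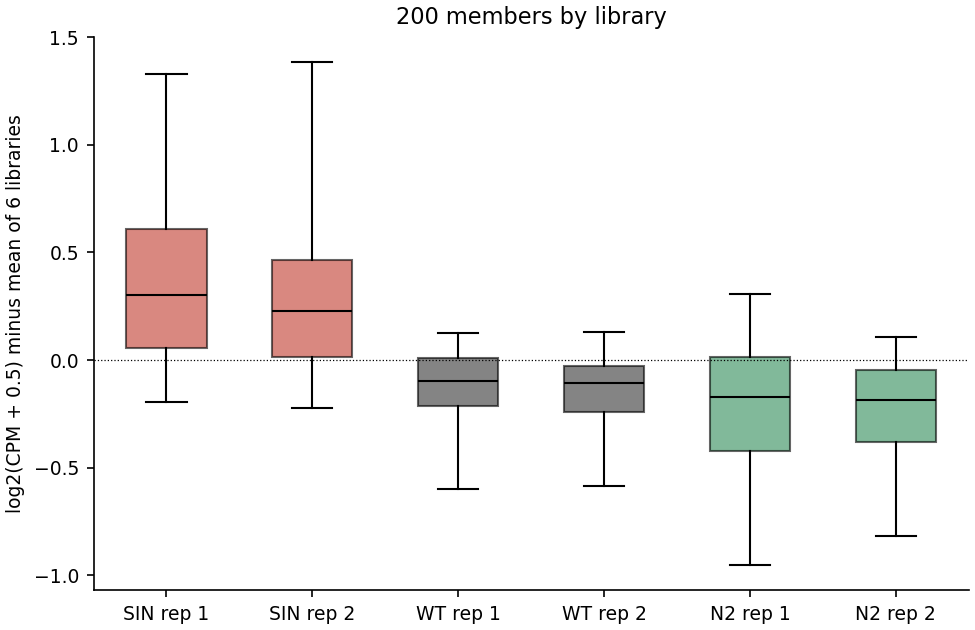
Levels of the 200 genes in each library, as log2(CPM + 0.5) minus the gene's mean over the 6 libraries (y axis), with SIN, WT and N2 from left to right. Boxes span the quartiles, lines mark medians and whiskers reach the 5th and 95th percentiles; the medians were 0.3 and 0.23 in SIN, -0.1 and -0.11 in WT and -0.17 and -0.19 in N2.

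The first question was how these transcripts behaved when the strain carried the slicing-inactive form and not the normal one. Of the 199 genes tested, 104 rose in SIN against WT (52.3%), 7 fell (3.52%) and 88 did not pass; over all genes tested, 12.1% rose and 13.3% fell. The median log2 fold change of the members was 0.37, with quartiles of 0.06 and 0.73, beside 0.04 over all genes. The rises were mostly moderate: 34 were under 1.5-fold, 37 were from 1.5 to 2-fold, 22 from 2 to 4-fold and 11 at least 4-fold, with a median of 1.65-fold. Rises of at least 2-fold numbered 33 among the members, beside 7.66% of all genes, and no member fell by as much, beside 2.12% of all genes. The falls were all small, from 1.21 to 1.48-fold.

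Both SIN libraries were above both WT libraries for 143 of the 200 members (71.5%, beside 38.4% of all genes) and below both for 31 (15.5%, beside 35.0%). In the authors' deposited table of SIN against WT, 107 of the 199 members with an adjusted p were higher and 9 lower at the same threshold, beside 12.8% and 16.9% of all its genes, and these included all 104 rises and 7 falls given here. The count of rises depended on which libraries entered the fit, and the share of all genes called higher moved with it. In the 6 fits that each left out 1 library, the median log2 fold change of the members was 0.32 to 0.38. All 104 kept their direction in each of these 6 fits, and 38 passed in every one.

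**Figure D2:**
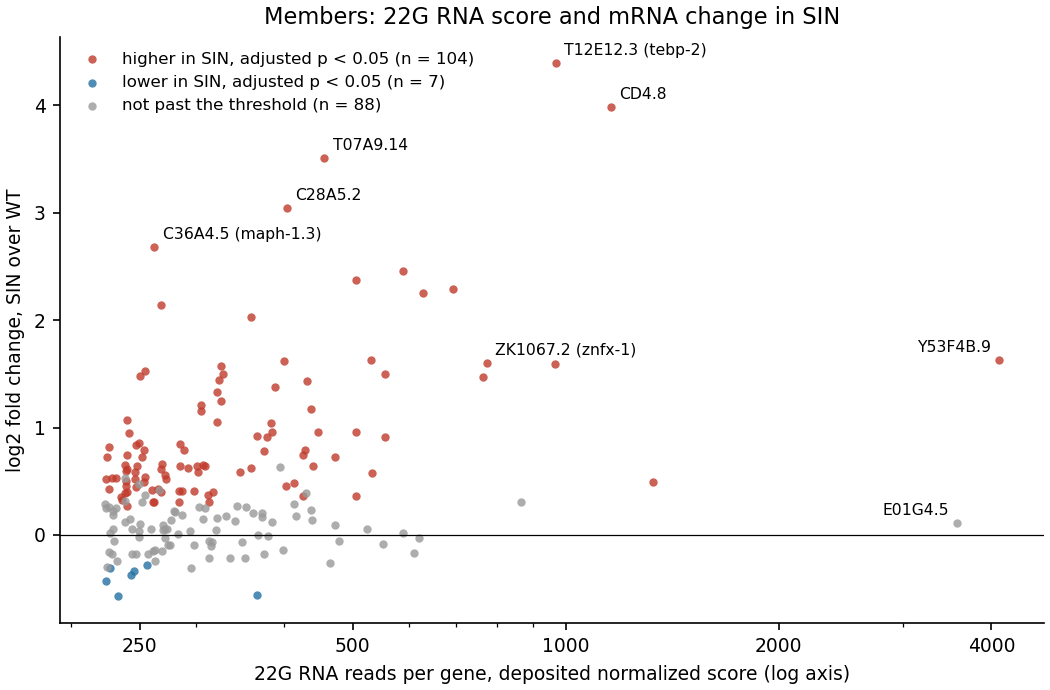
Score of 22G RNA reads (x axis, log scale) against the log2 fold change of mRNA in SIN over WT (y axis) for the 199 genes tested. Red points rose, blue points fell and grey points did not pass; the 7 falls lie within 1.48-fold of the line of no change, and the rises reach 21.0-fold at T12E12.3 (tebp-2).

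The 10 members with the most 22G RNA reads came first. Y53F4B.9, with a score of 4100 (chromosome II, 15004864 to 15010416, minus strand, 8 exons), stood at 365 and 340 CPM in SIN, against 120 and 108 CPM in WT and 125 and 92.0 in N2. Its SIN libraries were separate from all others, and it rose 3.09-fold against WT (adjusted p = 0.00197). E01G4.5, with a score of 3580 (chromosome II, 13472401 to 13473995, plus strand), showed no such gap: it had 19.9 and 19.8 CPM in SIN, 17.5 and 19.2 CPM in WT and 13.8 and 32.5 in N2, with SIN barely above WT, N2 on either side of both, and no call against WT (adjusted p = 0.851). It carried no deposited germline class and had no deposited value in the CSR-1 immunoprecipitate described further on, whereas Y53F4B.9 had 368 RPM (reads scaled to library size) there.

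T27F6.6 (score 1330) had 70.0 and 58.3 CPM in SIN, 46.8 and 44.3 CPM in WT and 40.5 and 42.7 in N2. It rose 1.41-fold against WT (adjusted p = 0.0296), a call lost when any 1 of the SIN or WT libraries was left out, and it overlaps pars-2 on the same strand, so that reads may be shared. CD4.8 (score 1160), T12E12.3 (tebp-2, score 969) and Y39G10AR.7 (ekl-7, score 692) belonged to the largest rises and are described below. Y111B2A.3 (herd-1, score 966) had 463 and 480 CPM in SIN, against 164 and 149 CPM in WT and 135 and 129 in N2, a 3.02-fold rise against WT (adjusted p = 0.000275). F55F10.1 (score 865) had 114 and 117 CPM in SIN, 91.8 and 94.8 CPM in WT and 132 ± 14 CPM in N2 (mean ± SD, n = 2). SIN lay above WT and below N2 for this gene, and its 1.24-fold difference from WT did not pass (adjusted p = 0.0552). The remaining 2 of the 10, ZK1067.2 (znfx-1, score 773) and Y45G5AM.2 (pid-5, score 763), are germ granule genes and are given with that group. Of the 10, then, 8 rose and E01G4.5 and F55F10.1 did not pass.

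The largest rise was that of T12E12.3 (tebp-2; chromosome IV, 5541627 to 5544748, plus strand, 6 exons), which encodes a protein that binds double-stranded telomere repeats. It had 938 and 1080 CPM in SIN, against 48.4 and 47.8 CPM in WT and 43.8 and 40.5 in N2. WT and N2 were close to each other and SIN stood far above both, at 21.0-fold over WT (log2 4.39 ± 0.12 SE, adjusted p = 5.94e-05). CD4.8 (chromosome V, 5599145 to 5601363, minus strand, 8 exons) had 209 and 218 CPM in SIN, 13 and 14.1 CPM in WT and 8.71 and 11.9 in N2, or 15.8-fold over WT (log2 3.98 ± 0.16 SE, adjusted p = 0.000118). It is in no deposited germline class.

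T07A9.14 (chromosome IV, 386699 to 387949, plus strand) had 550 and 566 CPM in SIN, 45.9 and 52.3 CPM in WT and 42.6 and 46.5 in N2, an 11.4-fold rise against WT. C28A5.2 (chromosome III, 4434750 to 4439543, minus strand, 18 exons) had 373 and 367 CPM in SIN, 44.9 and 44.8 CPM in WT and 27.4 and 31.6 in N2, an 8.25-fold rise. Both had an adjusted p of 5.94e-05, and for both the replicates of a strain were close together beside the gap to SIN. C28A5.1, downstream on the same strand and 405 bases away, is also a member and rose 2.7-fold (adjusted p = 0.00262), with 137 and 107 CPM in SIN, 47.6 and 42.4 CPM in WT and 37.6 and 32.5 in N2.

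C36A4.5 (maph-1.3), which encodes a protein related to the microtubule-associated MAP1 family, had 520 and 486 CPM in SIN, 78.2 and 79.1 CPM in WT and 38.9 and 45.7 in N2. It rose 6.39-fold against WT (adjusted p = 0.00011), and its relative F25D7.4 (maph-1.2), chosen after its values were seen, rose 2.83-fold (adjusted p = 0.00049), with 418 and 395 CPM in SIN, 150 and 137 CPM in WT and 133 and 119 in N2. Reads shared between the MAP1-related genes were not separated here. F34D10.4 had 484 and 499 CPM in SIN, 95.5 and 95.1 CPM in WT and 91.4 and 75.2 in N2 (5.16-fold over WT, adjusted p = 0.000169).

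Y39G10AR.7 (ekl-7) had 424 and 374 CPM in SIN, 79.9 and 82.8 CPM in WT and 61.6 and 56.3 in N2 (4.9-fold over WT, adjusted p = 0.000142). It overlaps mcm-4 on the other strand, and reads of the pair may not have been kept apart, as no source used here gives the strand setting of the counting. C10C5.1 (pezo-1; chromosome IV, 9343359 to 9366511, minus strand, 33 exons), the worm's Piezo mechanosensitive channel gene, had 587 and 612 CPM in SIN, 132 and 141 CPM in WT and 168 and 146 in N2, 4.39-fold over WT (adjusted p = 0.000169). Unlike the rises above, its N2 level was above that of WT, and at 31.7 RPM its value in the CSR-1 immunoprecipitate was below the members' median of 98.0. The other 2 of the 10 largest rises, Y48G1C.1 (pid-2) and T07C4.10 (sas-7), follow with their groups. Of these 10 rises all kept their call whichever library was left out.

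**Figure D3:**
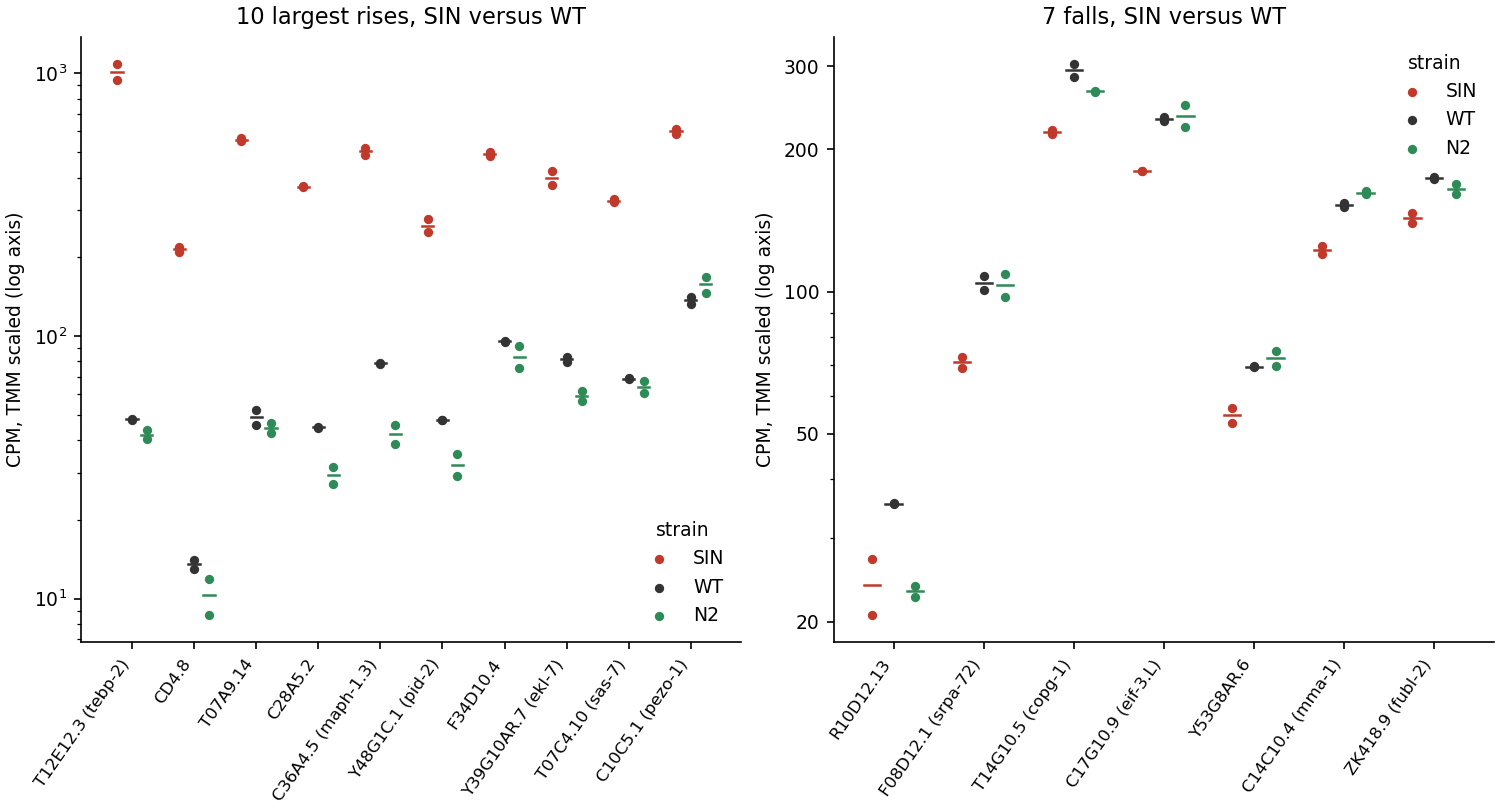
CPM of the 10 largest rises (left panel) and the 7 falls (right panel) in SIN against WT, on log axes, with SIN, WT and N2 from left to right within each gene. Points are libraries and short lines are strain means; SIN stands clear of both other strains in the left panel, while for R10D12.13 in the right panel WT is the strain apart.

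The 7 falls were small. All 7 kept their direction in each fit that left out 1 library and were also called by DESeq2, but each lost its call in every fit that left out a SIN or WT library, and none passed a test against a 1.5-fold change. R10D12.13 had 27.2 and 20.7 CPM in SIN, 35.6 and 35.4 CPM in WT and 23.8 and 22.6 in N2. SIN and N2 overlapped and WT stood above both, so its 1.48-fold lower level in SIN than in WT (adjusted p = 0.0434) had no counterpart against N2 (log2 0.05, adjusted p = 0.85). F08D12.1 (srpa-72), a subunit of the signal recognition particle, had 72.7 and 68.9 CPM in SIN, 108 and 101 CPM in WT and 109 and 97.5 in N2, 1.47-fold lower in SIN than in WT (adjusted p = 0.0102).

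T14G10.5 (copg-1), a subunit of the COPI vesicle coat, had 220 and 216 CPM in SIN, 303 and 285 CPM in WT and 266 and 265 in N2 (1.35-fold lower than WT, adjusted p = 0.0137). C17G10.9 (eif-3.L), a subunit of translation initiation factor eIF3, had 180 and 180 CPM in SIN, 230 and 234 CPM in WT and 223 and 249 in N2 (1.29-fold lower than WT, adjusted p = 0.0255). Y53G8AR.6 (1.27-fold), C14C10.4 (mma-1, 1.24-fold) and ZK418.9 (fubl-2, 1.21-fold) were the other genes lower in SIN than in WT, with adjusted p-values of 0.0396, 0.0276 and 0.041. R10D12.13, C17G10.9, Y53G8AR.6, C14C10.4 and ZK418.9 also lost their calls under upper-quartile scaling, under which the all-gene median was log2 0.17 in place of 0.04.

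Of the 77 members with a present symbol, 36 were placed in 5 groups by the role of their product, drawn up after the members were known. Their counts stand beside those of all members tested, of which 52.3% rose in SIN against WT and 3.52% fell (median log2 0.37). Of 8 genes for germ granule proteins and small RNA factors, 5 rose in SIN against WT and none fell, with a median log2 fold change of 0.84. Y48G1C.1 (pid-2), which acts in silencing downstream of piRNAs, had 248 and 278 CPM in SIN, 48.0 and 47.7 CPM in WT and 35.4 and 29.2 in N2, a 5.5-fold rise against WT (adjusted p = 0.000169); it overlaps Y48G1C.13 on the other strand. Its partner gene Y45G5AM.2 (pid-5) had 211 and 206 CPM in SIN, 75.2 and 75.7 CPM in WT and 58.1 and 58.6 in N2, a 2.77-fold rise (adjusted p = 0.000186), and overlaps Y45G5AM.9 on the other strand. ZK1067.2 (znfx-1; chromosome II, 9213658 to 9223153, plus strand), the helicase of the Z granule that takes part in inheritance of silencing, had 355 and 408 CPM in SIN, 125 and 127 CPM in WT and 132 and 138 in N2.

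For these 3 genes both SIN libraries stood clear above the other 4, and znfx-1 rose 3.03-fold against WT (adjusted p = 0.000329). C38D4.4 (mip-1) and F58G11.3 (mip-2) encode a pair of related LOTUS-domain proteins of the P granule. The mip-1 level was 428 and 406 CPM in SIN, 171 and 161 CPM in WT and 114 and 110 in N2 (2.51-fold over WT, adjusted p = 0.000402), and that of mip-2 was 286 and 315 CPM in SIN, 234 ± 0.93 CPM in WT (mean ± SD, n = 2) and 173 and 183 CPM in N2 (1.28-fold over WT, adjusted p = 0.0294). For both genes WT lay between SIN and N2.

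The other 3 of the group did not pass against WT. D1081.7 (lotr-1), a LOTUS and Tudor domain protein of the Z granule, had 510 and 451 CPM in SIN, 490 and 431 CPM in WT and 569 and 510 in N2, with SIN and WT overlapping (adjusted p = 0.741). C06A5.6 (simr-1), a Tudor domain protein that links piRNA targets to 22G RNA synthesis, had 181 and 198 CPM in SIN, 186 and 200 CPM in WT and 123 and 154 in N2. SIN and WT overlapped and N2 lay below both. B0035.6 (edg-1) had 211 and 174 CPM in SIN, 170 and 163 CPM in WT and 167 and 151 in N2 (adjusted p = 0.226 against WT). The group thus held genes that rose several-fold in SIN and others whose SIN and WT libraries overlapped. The group's 5 rises were 4 when any 1 SIN or WT library was left out, without mip-2.

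Of 11 genes for DNA replication, chromatin and telomere proteins, 5 rose in SIN against WT (45.5%, near the 52.3% of all members) and none fell. Their median of log2 0.26 was below the 0.37 of all members. Beside tebp-2 these were its relative R06A4.2 (tebp-1), with 105 and 92.4 CPM in SIN, 56.5 and 57.7 CPM in WT and 69.6 and 50.3 in N2 (1.73-fold over WT, adjusted p = 0.0186), and C01H6.9 (hasp-1), the haspin kinase of histone H3, with 181 and 161 CPM in SIN, 56.5 and 54.2 CPM in WT and 55.2 and 47.4 in N2 (3.09-fold, adjusted p = 0.000576). The histone chaperone gene K10D2.1 (hira-1) rose 1.5-fold (adjusted p = 0.00647) and the replication checkpoint gene F25H5.5 (clsp-1, claspin) 1.44-fold (adjusted p = 0.0132). The 2 telomere genes thus moved by very different amounts. The DNA polymerase genes did not pass: F33H2.5 (pole-1) had 197 and 192 CPM in SIN, 196 and 189 CPM in WT and 261 and 191 in N2 (adjusted p = 0.941 against WT), and Y47D3A.29 (pola-1) had 241 and 241 CPM in SIN, 254 and 248 CPM in WT and 289 and 248 in N2 (adjusted p = 0.698).

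Of 7 nucleolus and ribosome assembly genes, 4 rose (57.1%, near the 52.3% of all members) and none fell (median log2 0.40). The 4 were Y23H5B.6 (ddx-10) at 2.07-fold, Y48G1A.4 (nol-14) at 1.72-fold, C47E12.7 (rrp-1) at 1.66-fold and C05D11.9 (popl-1) at 1.32-fold over WT, with adjusted p-values of 0.00155, 0.00408, 0.00642 and 0.0198. K07H8.10 (nucl-1), which encodes nucleolin and was among the members with most mRNA per length, had 729 and 730 CPM in SIN, 741 and 798 CPM in WT and 684 and 870 in N2, and did not pass (adjusted p = 0.707 against WT). Of 7 splicing genes 1 rose and none fell (median log2 -0.09). That 1 was F19F10.9 (snu-66), with 252 and 229 CPM in SIN, 157 and 149 CPM in WT and 180 and 156 in N2 (1.57-fold over WT, adjusted p = 0.00861). The splicing median was log2 0.04 under upper-quartile scaling. With 1 SIN or WT library left out, 1 to 3 nucleolus genes and 0 splicing genes were called higher, and 2 to 4 of the replication and chromatin genes. The other 6 splicing genes lay between log2 -0.21 for B0035.12 (sart-3) and log2 0.06 for K07C5.6 (sluh-7).

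All 3 genes of the centriole and the meiotic divisions rose, and 2 passed in the test against a 1.5-fold change. Not all 3 kept their call when either WT library was left out. T07C4.10 (sas-7; chromosome III, 10321019 to 10325675, plus strand), needed for centriole duplication, had 332 and 322 CPM in SIN, 68.5 and 69.0 CPM in WT and 67.2 and 60.7 in N2, a 4.76-fold rise against WT (adjusted p = 0.00011); it overlaps nex-2 on the other strand. H02I12.5 (memi-3) and Y62E10A.14 (memi-2), close copies of each other from a family that acts at the meiotic divisions of the egg, rose 1.95-fold and 1.73-fold (adjusted p = 0.00347 and 0.00746). Reads of the copies may have been split or shared, so that their values are uncertain. B0336.3 (rbm-26), an RNA-binding protein gene outside these groups, rose 1.5-fold, with 451 and 462 CPM in SIN, 305 and 305 CPM in WT and 285 and 262 in N2 (adjusted p = 0.00792), a call lost without any 1 SIN or WT library.

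**Figure D4:**
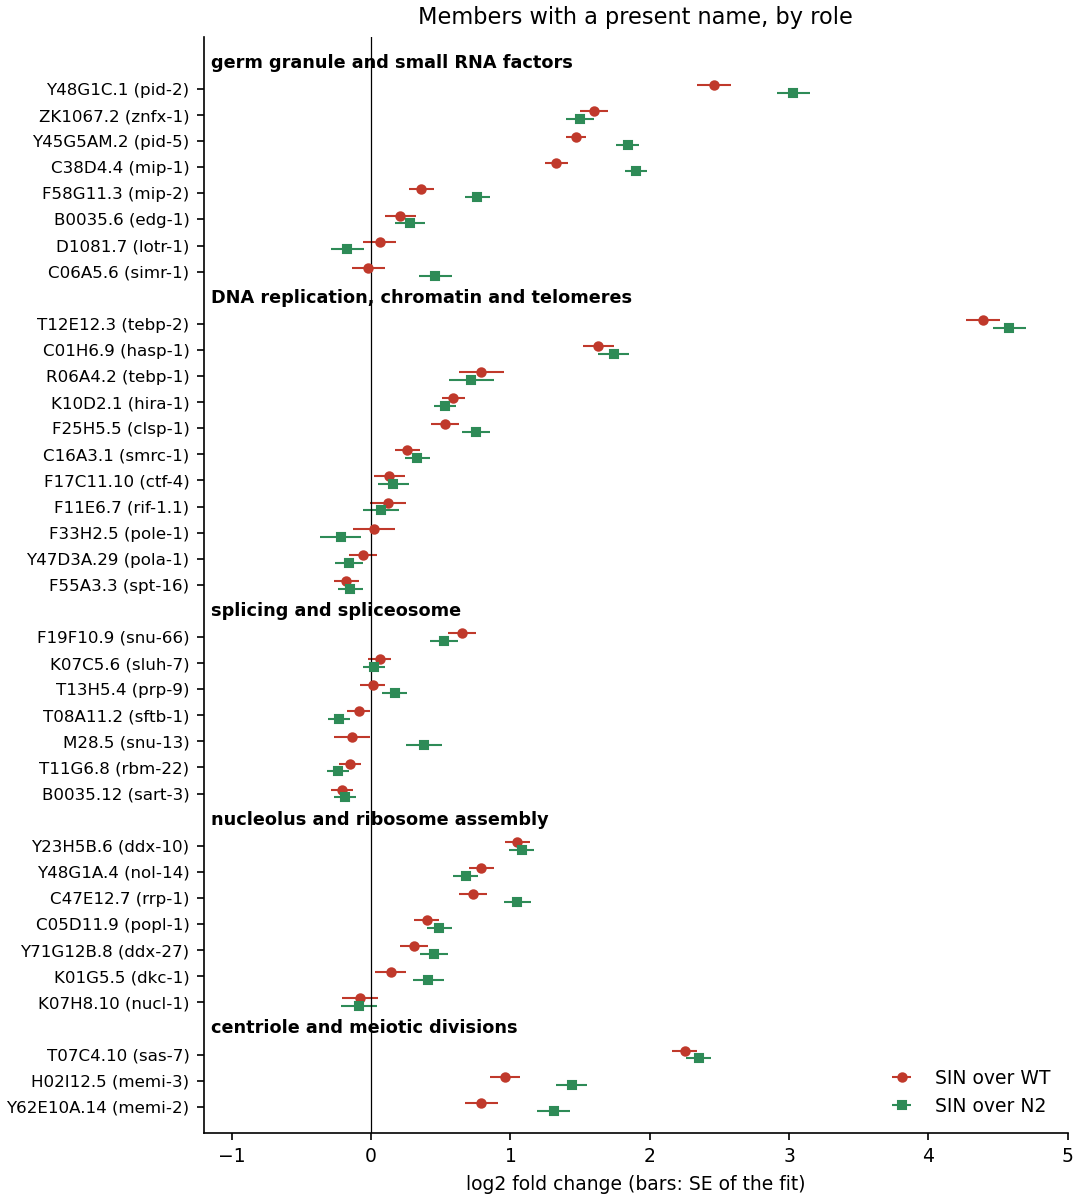
Log2 fold change of mRNA in SIN over WT (red circles) and SIN over N2 (green squares) for the members placed in a role group, with bars for the standard error of the fit. The comparisons share the SIN libraries; tebp-2 is the gene farthest to the right, and 6 of the 7 splicing genes lie within log2 0.21 of 0 against WT.

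Members with and without a gene-class symbol rose in similar shares. Of 122 tested without a symbol, 66 rose in SIN against WT (54.1%) and 2 fell (median log2 0.40). Of 77 with a symbol 38 rose (49.4%) and 5 fell (median log2 0.31). Both shares of rises were near the 52.3% of all members tested, beside 12.1% of all genes. Some of the next largest rises are named here after their values were seen. C16A11.4 had 482 and 468 CPM in SIN, 112 and 120 CPM in WT and 92.3 and 105 in N2 (4.09-fold over WT, adjusted p = 0.000169). F13D12.5 rose 3.07-fold, F18C12.3 2.96-fold, R144.10 2.9-fold, F01G4.4 2.82-fold, C55B7.11 2.8-fold and C35D10.7 2.61-fold, with adjusted p-values from 0.000319 to 0.00257. R144.10 overlaps R144.5, and C55B7.11 overlaps gly-2, on the other strand. R05D3.2 (lmbr-1) had 341 and 344 CPM in SIN, 127 and 128 CPM in WT and 131 and 117 in N2, 2.69-fold over WT (adjusted p = 0.000368).

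A high score did not always come with a rise. T08G11.1 (vps-13), a lipid transfer protein gene with a score of 438, had 408 and 413 CPM in SIN, 363 and 382 CPM in WT and 474 and 396 in N2 (adjusted p = 0.401 against WT). F36A2.13 (ubr-5), a ubiquitin ligase gene with a score of 464, had 332 and 337 CPM in SIN, 399 and 399 CPM in WT and 496 and 406 in N2 (adjusted p = 0.148 against WT). C08H9.2 (vgln-1, vigilin), an RNA-binding protein gene with a score of 247, had 734 and 754 CPM in SIN, 847 and 834 CPM in WT and 897 and 880 in N2 (adjusted p = 0.21 against WT). For ubr-5 and vgln-1 both SIN libraries lay below all others by a margin that did not pass against WT, and ubr-5 fell against N2 (log2 -0.43, adjusted p = 0.0369). These 3 genes were chosen after their values were seen.

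Against N2, the strain with its chromosomal csr-1, the members were also mostly higher in SIN: 118 rose (59.3%), 10 fell (5.03%) and 71 did not pass, while 12.3% of all genes rose and 13.3% fell. The median log2 fold change was 0.46, with quartiles of 0.05 and 0.94, beside -0.07 over all genes, and 46 members rose and 1 fell by at least 2-fold, beside 7.54% and 4.0% of all genes. The SIN libraries lay above both N2 libraries for 139 members (69.5%, beside 29.6%) and below both for 28 (14%, beside 33.1%). This comparison shares the SIN libraries with that against WT: 102 members were called higher and 5 lower in both, 16 were called higher against N2 alone and 2 higher against WT alone. The rule for named genes gave T12E12.3 (tebp-2), CD4.8 and C28A5.2 as the largest rises, at log2 4.58, 4.38 and 3.65 over N2.

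The largest fall against N2 was that of Y116F11A.1, at 1.0 and 1.37 CPM in SIN, 1.32 and 1.41 CPM in WT and 2.85 and 4.92 in N2 (log2 -1.71, adjusted p = 0.0195). It is hardly expressed in any strain, and SIN and WT overlapped. F08D12.1 (srpa-72) followed at log2 -0.54 (adjusted p = 0.0105). R148.3 had 120 and 117 CPM in SIN, 147 and 147 CPM in WT and 175 and 149 in N2 (log2 -0.45 against N2, adjusted p = 0.021). None of the 10 falls against N2 was called in every fit that left out 1 library. Among the 5 role groups, 6 of 8 germ granule genes (median log2 1.13), 6 of 11 replication and chromatin genes (0.33), 6 of 7 nucleolus genes (0.49), 1 of 7 splicing genes (0.02) and 3 of 3 centriole and meiotic genes (1.44) rose against N2, and none fell. These counts stand beside 59.3% of all members tested that rose against N2 (median log2 0.46). In the same order of groups, 4, 2, 2, 0 and 3 rose in the test against a 1.5-fold change, beside 3.95% of all genes. Without SIN replicate 1 the medians were 1.21, 0.28, 0.42, -0.06 and 1.29. When 1 N2 library was left out, some genes of the replication, nucleolus or splicing groups were called lower, and more of all genes were called lower as well. The genes called against N2 and not against WT included simr-1 (log2 0.46, adjusted p = 0.0402), K01G5.5 (dkc-1, the dyskerin gene; log2 0.41, adjusted p = 0.039) and Y71G12B.8 (ddx-27; log2 0.45, adjusted p = 0.0207).

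WT against N2 compares a strain with the normal transgene on the deletion background with a strain that has neither. No member passed in edgeR's quasi-likelihood test in this comparison, beside 0.0454% of all genes higher and 0.0649% lower (0.039% and 0.0584% by at least 2-fold). At an unadjusted p under 0.05 in edgeR, 47 members were higher and 6 lower, and 3091 of the 15404 genes tested passed in either direction. DESeq2 called 31 members higher and 2 lower, beside 2.43% and 2.23% of all genes with counts. The lowest adjusted p from edgeR was 0.0502, for C36A4.5 (maph-1.3), whose WT libraries stood at 78.2 and 79.1 CPM, against 38.9 and 45.7 CPM in N2. The WT libraries were above both N2 libraries for 93 members (46.5%, beside 25.4% of all genes), below both for 45 (22.5%, beside 27.7%) and overlapped with them for 62. The median log2 fold change of the members was 0.07, beside -0.03 for all genes. The absence of calls depended on the N2 libraries. When either N2 library was left out, members were called in both directions, and more of all genes were called as well. The median log2 fold change of the members was 0.06 to 0.13 with 1 library left out.

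The 200 genes shared features that the choice by score did not use. By the deposited germline classes, 131 were germline expressed (65.5%, beside 72.7% of the 3933 other genes with a score and 30.0% of all genes tested), 33 were germline specific (16.5%, beside 22.4% and 6.86%) and 110 were germline enriched (55%, beside 39.7% and 17.6%). A class was missing for 37. Of the 110 enriched genes 66 rose in SIN against WT and 2 fell (median log2 0.44). Of the 89 tested genes outside that class 38 rose and 5 fell (median log2 0.27), and of the 36 tested without any class 12 rose and 2 fell (median log2 0.26). The sperm and oocyte markers called in SIN against WT are given above; their part in these counts was not tested.

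Members lay on all chromosomes but were rare on X. Chromosome I held 43, II 37, III 43, IV 39 and V 33. X held 2 (1.0%, beside 1.63% of the other genes with a score and 13.8% of all genes tested), and these, F39F10.4 and ZK402.5, were not among the rises. On the autosomes the rises numbered 24, 18, 21, 21 and 17, in the same order of chromosomes. Of 41 members that overlap another tested gene, 25 rose and none fell; of the 158 tested that overlap none, 79 rose and 7 fell. In 8 places members were neighbours within 2 kb. On chromosome II, znfx-1 ends 115 bases before ZK1067.3 begins, and ZK1067.3 rose 1.56-fold (adjusted p = 0.00846). C16A11.4 lies 387 bases from C16A11.3, which did not pass against WT (1.25-fold, adjusted p = 0.181).

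Members were long genes, with levels above the median of all genes and near those of other genes with a score. Their median deposited gene length was 2572 bases, beside 1823 for other genes with a score and 1349 for all genes tested, and their median coding length in the annotation was 2073 bases, beside 1329 and 1041. Per length, in the authors' RPKM (reads scaled to gene length and library size, 1 mean per strain), their median level was 69.8 in SIN, 43.2 in WT and 40.3 in N2; the medians of other genes with a score were 52.2, 51.0 and 49.1, and those of all genes tested 5.82, 5.28 and 6.14, in the same order of strains. The N2 level ranged from 0.0439 for ZK402.5 to 458 for T19H12.2, whose level was 982 RPKM in SIN and 592 RPKM in WT. T19H12.2, germline specific by the deposited class, rose 1.54-fold against WT (adjusted p = 0.0102), a call lost without any 1 SIN or WT library, and had 893 and 785 CPM in SIN, 550 and 539 CPM in WT and 405 and 421 in N2. F22D6.2 (mstr-1), next in N2 at 387 RPKM, overlaps kin-14 on the same strand and did not pass against WT (adjusted p = 0.793). At the low end, Y24F12A.3, annotated as a pseudogene, and F29G9.1 had 4.36 and 1.44 RPKM in N2 and did not pass against WT (adjusted p = 0.116 and 0.225). The other pseudogene, K11H3.4, had 90.2 and 74.4 CPM in SIN, 45.4 and 45.5 CPM in WT and 33.4 and 36 in N2 and rose 1.81-fold against WT (adjusted p = 0.00696).

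Rises were fewest among the members with the most mRNA. Of the 50 members with the highest N2 RPKM (62.4 to 458), 15 rose in SIN against WT and 3 fell (median log2 0.09). In the next groups of 50 down the order, 26 of 50, 36 of 50 and 27 of 49 tested rose (medians 0.34, 0.59 and 0.46). In the authors' deposited ratio of 22G RNA reads to N2 RPKM, the 50 members with the most 22G RNA per mRNA held 28 rises among 49 tested (median log2 0.74), each of the next 2 groups of 50 held 32 rises (medians 0.46 and 0.48), and the 50 with the least (0.643 to 4.26) held 12 rises and 3 falls (median 0.05). The count of rises was thus low at the lowest ratios and did not climb further at the highest. Across the 199 genes tested, as a description of genes that are not independent of one another, Spearman's rho with the log2 fold change in SIN over WT was 0.26 for the score, -0.36 for N2 RPKM and 0.42 for the score per N2 RPKM. The score and N2 RPKM were themselves close to unrelated (rho -0.05, 200 genes).

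A second small RNA column of the deposited table, from a different study, gives 22G RNA reads, as RPM, in a CSR-1 immunoprecipitate. It held a value for 191 members (95.5%, beside 90.1% of the other genes with a score and 34.1% of all genes tested). Their median was 98.0 RPM, beside 41.5 for the other genes with a score. The median of the deposited enrichment over input, a fraction, was 0.876, beside 0.868. Score and immunoprecipitate RPM went together only in part (rho 0.44, 191 members). Within the members, the RPM was nearly unrelated to the change in SIN over WT (rho 0.08, 190 members). The members cover only the top of the score, where the score's own rho was 0.26, beside 0.53 over 1626 sequence-named genes. In eighths of the sequence-named genes by score, the median RPM was 15.4 in the lowest and 97.0 in the highest. Whether RPM and change go together over that wider range was not tested. The members that rose had a median of 97.2 RPM and those that did not pass 98.2 RPM. Of the 9 members without a value, 3 rose, among them F59A6.5 (citk-2), with 292 and 255 CPM in SIN, 179 and 171 CPM in WT and 166 and 140 in N2 (1.56-fold over WT, adjusted p = 0.0125).

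Set beside other genes with a score, the 200 were one end of a graded series. In eighths of the 1642 sequence-named genes ordered by score, from lowest to highest, 1.5%, 3.98%, 4.9%, 5.42%, 5.88%, 11.3%, 20.4% and 51.7% of the genes tested rose in SIN against WT, and 52.5%, 44.8%, 37.3%, 25.1%, 25%, 21.2%, 9.71% and 3.41% fell. The median log2 fold change went up with each step, from -0.47 in the lowest eighth to 0.37 in the highest. The median N2 level differed little, between 35.4 and 49.0 RPKM, but the median gene length was 1169 bases in the lowest eighth and 2544 in the highest. Across 1626 tested genes the rho of score and log2 fold change was 0.53. The 200 sequence-named genes with the lowest scores had 3 rises and 103 falls among 195 tested (median log2 -0.48), and the 3915 other tested genes with a score had 495 rises and 1089 falls (median -0.18).

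The series was not particular to genes without a name in the table. Among the 200 genes with a symbol and the highest scores, 137 rose and 5 fell in SIN against WT (68.5% and 2.5%, median log2 0.60), and by eighths the share that rose was 0.645% at the lowest scores and 58.0% at the highest. With the score divided by gene length, the highest eighth of the sequence-named genes had 35.4% rises and 9.6% falls (median log2 0.18) and the lowest 5.39% and 40.2% (median -0.28). The gradient was thus flatter per base; this division was chosen after seeing the data.

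**Figure D5:**
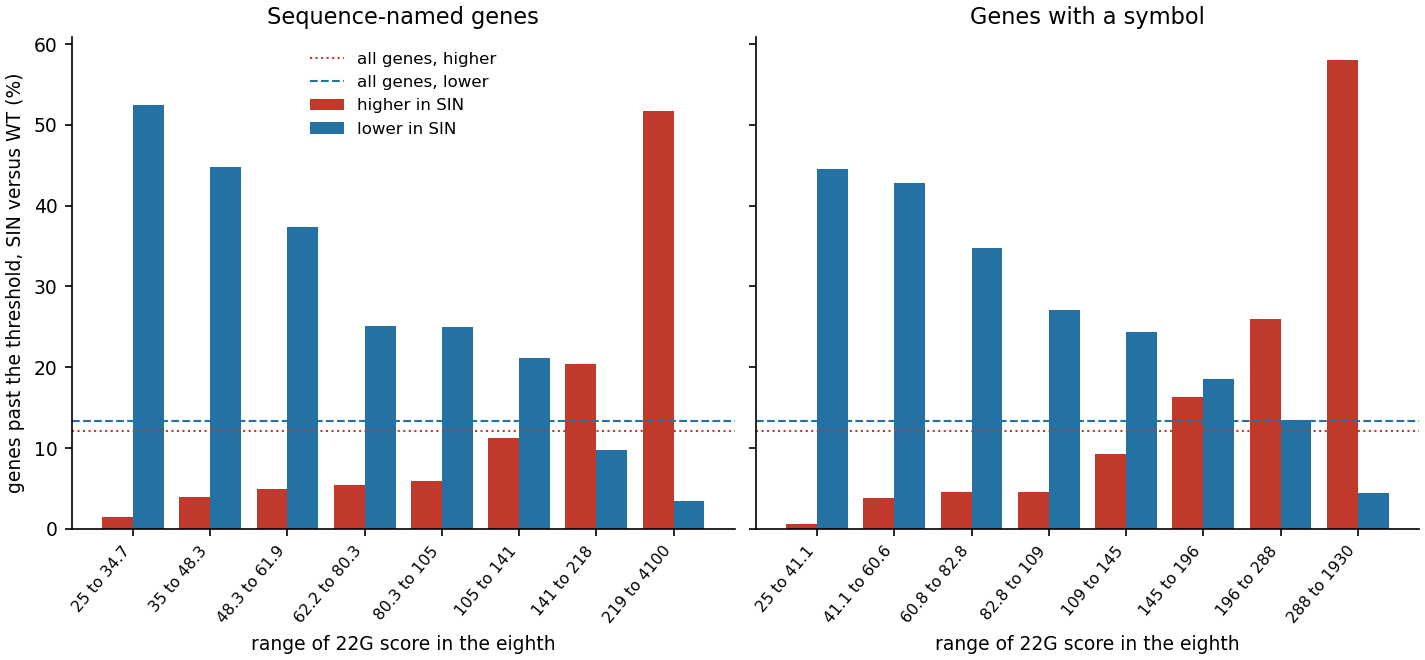
Share of genes tested that rose (red) or fell (blue) in SIN against WT, in %, in eighths of the score from low to high, for sequence-named genes (left) and genes with a symbol (right). Lines mark the shares over all genes, 12.1% higher and 13.3% lower; the red bars reach 51.7% and 58.0% at the right end, and the blue bars reach 52.5% and 44.5% at the left end.

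Within the 200, the step lay at the top. The 50 genes with scores from 384 to 4100 had 32 rises and no fall (median log2 0.69), while the 3 lower groups of 50 had 23 rises of 49 and then 24 and 25 of 50 (medians 0.26, 0.31 and 0.33), with 1, 1 and 5 falls. The limit of 200 genes passed between close values. Just inside it were T14G10.5 at 223.9, F53H1.4 at 223.8 and Y66D12A.9 at 222.8, and just outside were K08F4.1 at 222.3 and ZK829.7 and M03F8.3 at 221.7 each. In RPKM, T14G10.5 had 59.9 in SIN, 75 in WT and 69.3 in N2, and F53H1.4 had 44.2 in SIN, 34.5 in WT and 36.7 in N2.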

How the data were processed

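Per the file headers, the authors' table gives whole-number read counts of 46748 genes in 6 libraries. STAR, HTSeq, DESeq, DESeq2 and build WBcel235 are listed in the submitters' processing notes, with no version and no role. No source used here gives the annotation release or the strand setting. Per the labels, 500 ng of total RNA went into a stranded poly(A) library and was read as 50-base single reads. The authors' deposited RPKM is a mean per strain. Their deposited log2 fold change and adjusted p-value of SIN against WT were used only beside the counts of calls. Per the file headers, the 22G RNA score, its ratio to RPKM, the RPM in a CSR-1 immunoprecipitate and the enrichment fraction come from other studies, and no source used here says how the score was scaled; the RPM of the input was not used here.

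Counts were tested with edgeR 4.0.16 (limma 3.58.1, R 4.3.3): TMM scaling, filterByExpr (minimum count 10, total 15), 15404 genes, 1 robust quasi-likelihood fit of 3 strain means with 3 residual degrees of freedom, and Benjamini-Hochberg adjustment at 0.05 over all genes. The filter removed at most 0.0476% of a library's counts. DESeq2 1.42.0 was an alternative. Between replicates, counts varied beyond sampling noise in every strain (chi-square per degree of freedom from 9.533 to 134.3), so each library was counted once.

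Present names came from a table of gene names, and positions and overlaps from the Ensembl WBcel235 annotation, release 115. Gene lengths are as deposited. The members, gene lists and role groups were chosen with earlier results of these data known. Named are the 10 highest scores; the 10 largest rises and falls against WT and the 3 against N2 among called members with non-overlapping libraries and at least 2 CPM in the higher group; up to 12 members with a present symbol; the 3 on each side of the limit; and the 3 highest and lowest in N2 RPKM. Other names were added for role groups or where stated. Sequences were not used here.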

Additional observations from a re-analysis of the deposited data

How the results depend on the processing

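Among the 200 genes, the counts of rises and falls in SIN depended on the threshold and on which libraries entered the fit. The counts of falls also depended on the scaling. Rises against WT numbered 104, and 40 in a test against a 1.5-fold change, 55 among the 100 highest scores, 68 among the 200 highest scores per base (added after seeing the data), and 40 to 119 with 1 library left out; the share of all genes called higher moved with them, from 1.58% to 20.3%. Falls against WT numbered 7, and 2 with upper-quartile scaling, 13 with the 4 libraries alone, 0 against 1.5-fold, 1 and 14 for the 100 and 300 highest scores, 19 per base, and 0 to 17 with 1 library left out. The median log2 fold change was 0.37, and 0.51, 0.33, 0.46, 0.27 and 0.17 with upper-quartile scaling, no filter, 100 genes, 300 genes and per base, and 0.32 to 0.38 with 1 library left out. Against N2, rises numbered 118, and 51 against 1.5-fold, 61 for 100 genes, 76 without members that overlap another gene, and 67 to 122 with 1 library left out. Falls against N2 numbered 10, and 6 with upper-quartile scaling, 1 with 4 libraries, 0 against 1.5-fold, 5 and 17 for 100 and 300 genes, and 0 to 21 with 1 library left out; the median was 0.46, and 0.54, 0.53, 0.38 and 0.33 with upper-quartile scaling, 100 genes, 300 genes and per base, and 0.42 to 0.50 with 1 library left out.

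For WT against N2, 0 members passed in either direction; 1 was higher with RLE scaling, 31 with DESeq2, 33 without the filter and 0 to 38 with 1 library left out, and 2 were lower with DESeq2, 4 without the filter and 0 to 16 with 1 library left out. The median of 0.07 was 0.10, 0.02, 0.11, 0.10, 0.04 and 0.19 with RLE, upper-quartile scaling, DESeq2, no filter, no overlapping members and per base, and 0.06 to 0.13 with 1 library left out. For E01G4.5, SIN versus N2 gave log2 -0.22, and -0.72 without N2 replicate 1 and 0.52 without N2 replicate 2. With the replicate block, 105 rose and 8 fell against WT, 119 and 11 against N2, and 6 and 0 in WT against N2. Same-numbered libraries deviated together (0.344 for SIN and WT, 0.377 for SIN and N2, 0.236 for WT and N2), and in every strain replicate 1 had the lower muscle and hypodermis marker sums; with only 2 numbers, which the labels tie to no batch, the numbers were not taken as pairs. DESeq2 called all 104 rises and 7 falls. The cause of each change was not tested, apart from the smaller or larger sets of genes or libraries that some alternatives use by construction. Each strain had 2 libraries, which limits the precision of every value.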
